A study of Mus musculus with 6 samples.

Results

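Classical monocytes in the fracture callus were chosen by their own transcripts from 6 single-cell RNA libraries of mouse femoral callus. A barcode was taken as a monocyte when it had at least 1000 UMIs (unique molecular identifiers, each standing for 1 captured transcript) and at most 10% mitochondrial UMIs, at least 1 UMI of Ccr2, and at least 5 UMIs of Ccr2, Ly6c2, Plac8 and Ms4a4c together. It also had to have under 5 UMIs of C1qa, C1qb and C1qc, under 20 of H2-Aa, H2-Ab1 and H2-Eb1, under 5 of Elane, Prtn3 and Mpo, and 0 of Cd3e and Cd79a. This rule selected 1397 of the 38001 barcodes that passed the UMI and mitochondrial filter, out of 46944 barcodes in all. The levels of the genes in the rule are therefore given as a description, and no test of monocytes against other cells was made.

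The calluses came from mice with a transverse, pinned fracture of the mid-femur, and the methods describe the animals as adult males whose calluses were collected at a single time after fracture. The 3 control libraries are labelled wt for genotype, and the study names the control mice Piezo1 f/f, that is, carriers of floxed Piezo1 alleles. The study describes the knockout mice as carrying Col2CreERT2, a tamoxifen-inducible Cre driven by a Col2 promoter that marks chondrocytes. The genotype label of the 3 libraries labelled knockout reads Piezo3-/- where the series title and design name Piezo1. Tamoxifen was injected on consecutive days once callus cartilage forms, into both the Piezo1 f/f controls and the Cre-carrying mice, by the description of the study. The labels do not tie a library to a mouse, so p-values below measure only the spread between these libraries, which may be technical. The driver is not a monocyte promoter, and Piezo1 in the monocytes therefore does not check the genotype labels.

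Classical monocytes are short-lived blood cells that leave the marrow through the chemokine receptor Ccr2, enter injured tissue and can become macrophages or dendritic cells there. In a healing fracture they arrive during the inflammatory phase and are known as a source of macrophages and of osteoclast precursors. In the mouse they carry high Ly6C surface protein, whereas nonclassical monocytes, which patrol the vessel wall, carry little.

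The libraries held 69361237, 77384286 and 80735192 UMIs in controls 1, 2 and 3 and 57626530, 103784364 and 102513582 UMIs in knockouts 1, 2 and 3. Below, values in a row of 6 are in this order. Both libraries numbered 1 had the fewest barcodes (4603 and 3482), and both libraries numbered 3 were counted on a gene list of 55357 genes where the others used 55450 genes. Between 4 and 36 barcodes were shared by any pair of libraries, at most 0.383% of a library. Knockout 3 went against its description: its monocytes had 465 CPM (counts of a gene per 1000000 UMIs summed over the same cells of a library) of Xist, the RNA that coats the inactive X chromosome, where the other 5 libraries had 0 UMIs. Its monocytes also had 0 UMIs of the Y-linked genes Ddx3y, Eif2s3y, Kdm5d and Uty, each of which was found in the monocytes of the other 5 libraries. The shares, the counts of genes and some of the lists and genes are also given without knockout 3.

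The 6 libraries contributed 19, 386, 269, 89, 571 and 63 monocytes, which held 285464, 2347350, 2017848, 1826292, 3466350 and 643460 UMIs. Median UMIs per monocyte were 15257, 4651.5, 6564, 16320, 4756 and 6577, and median genes per monocyte 4092, 1990, 2320, 4117, 1947 and 2359. Control 1, with 19 cells, gave the thinnest profile, and both libraries numbered 1 were the deepest per cell.

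The genes of the rule were not carried equally by the selected cells. Every monocyte had Ccr2 by the rule. Plac8, a cysteine-rich protein of myeloid cells, had a UMI in 93.6% of monocytes, Ly6c2, one of the genes of the Ly6C surface protein, in 72.6%, and Ms4a4c, a membrane protein of the MS4A family, in 68.6%. All 4 genes were found together in 722 monocytes (51.7%), and the median sum of the 4 was 25 UMIs. In stromal cells, taken as barcodes with no Ptprc and at least 20 UMIs of Col1a1, Col1a2, Col2a1 and Sparc together, Ly6c2 had a UMI in 5.67% of cells, and their median depth was 8723 to 23915 UMIs per library, above that of the monocytes in each library. With each cell thinned to 1000 UMIs, Ly6c2 was found in 40.9% of monocytes and in 1.03% of stromal cells.

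Summed per library, Ccr2 stood at 977, 959.7, 911, 518, 855 and 443 CPM in the monocytes. Plac8 stood at 1626, 2412, 2097, 650.2, 2397 and 1088 CPM, and Ms4a4c at 253, 304, 240.3, 214, 366 and 223 CPM. Ly6c2 was at 421, 479, 558, 169, 1353 and 319.7 CPM, so knockout 2 was the highest library and knockout 1 the lowest. The share of monocytes with a Ly6c2 UMI ran from 52.6% in control 1 to 85.5% in knockout 2. Ly6c2 (chr15:75108158-75111970, minus strand, GRCm38) and its neighbour Ly6c1 are near-identical copies: over the last 300 bases of their transcripts, where 3′ reads fall, 291 bases (97%) were the same, so the split of counts between them is uncertain. Ly6c1 was at 153, 65.9, 19.4, 13.9, 49.8 and 17.2 CPM in the monocytes. Ccr2 lies at chr9:124101950-124113557 (plus strand), Plac8 at chr5:100553725-100572245 (minus strand) and Ms4a4c at chr19:11404770-11427246 (plus strand).

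F10, the gene of coagulation factor X, at chr8:13037308-13056676 on the plus strand, was a marker that the rule did not use. It was at 221, 201, 208, 244, 152 and 254 CPM in the monocytes (mean 213 ± 36.2, SD, n = 6 libraries) and at 16.7 ± 17.4 CPM in the macrophages of the same libraries. Its per-library values in monocytes were the least spread of the 5 markers relative to their mean. F10 had a UMI in 55.05% of monocytes and in 1.68% of stromal cells, and in 17.3% and 0.247% with cells thinned to 1000 UMIs.

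The plot of marker levels by library sets these genes beside Chil3, Csf1r, Apoe and Mrc1. Of the markers outside the rule, Chil3, a chitinase-like lectin of monocytes and neutrophils, was at 471, 766, 1772, 1858, 1811 and 679.9 CPM. F13a1, the transglutaminase coagulation factor XIII A chain, was at 599, 643, 510.4, 869.7, 574 and 649 CPM. Both genes were found in each library. Against macrophages, the nonclassical (median log2 ratio 1.57) and neutrophil (1.74) lists described below lay as high as the classical list (1.55). The name classical monocyte thus follows the rule, and these lists do not single it out. Csf1r, the receptor for macrophage colony-stimulating factor, which both monocytes and macrophages carry, was at 367, 307, 311, 367, 352 and 178 CPM.

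**Figure D1:**
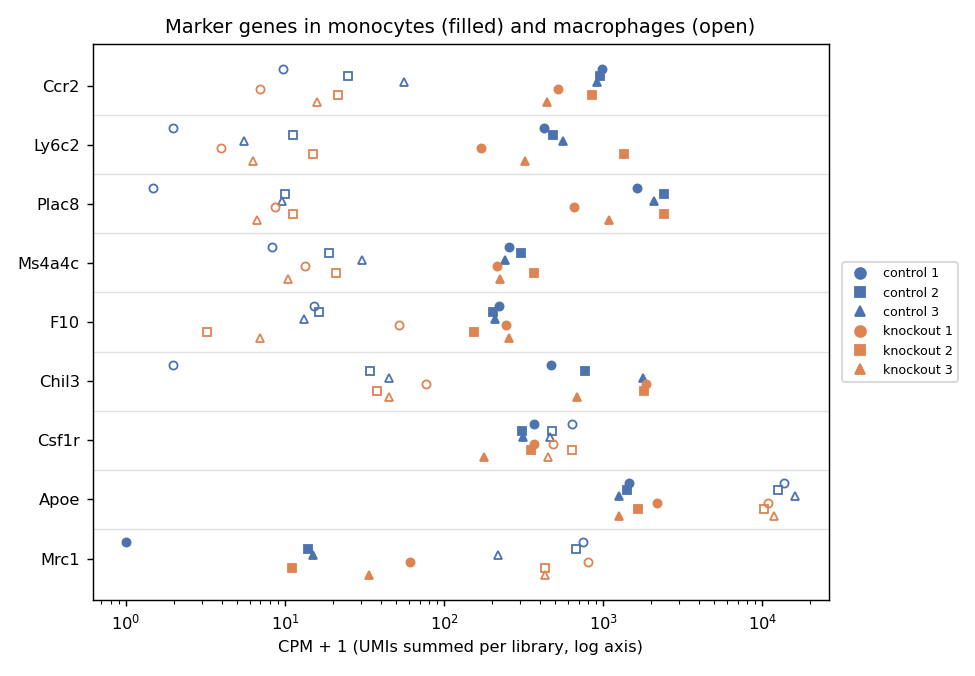
CPM plus 1 (log axis) of 9 genes in the monocytes (filled) and the macrophages (open) of each library, with controls in blue and labelled knockouts in orange. The rule genes, F10 and Chil3 lie to the right in the monocytes of each library, and Apoe and Mrc1 to the left. Csf1r lies closer together in both classes, with a lower mean in the monocytes.

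At the edge of the rule, 44 cells had a sum of exactly 5 UMIs of the 4 genes and were taken, and 80 cells with a sum of 4 met all other terms and were not. F10 was at 149 CPM in the former, 82.4 CPM in the latter and 198 CPM over all members. Chil3 was at 910 CPM just inside, 355 CPM just outside and 1475 CPM over all members. The cells at the edge, on both sides, carried less of both markers than the members as a whole.

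Of the monocyte genes in the rule, Ly6c2, Plac8 and Ms4a4c have a short motif before their start and Ccr2 does not. The motif GAGGAA, the purine-rich core bound by the ETS factor PU.1 (Spi1), was searched on both strands, where it reads GAGGAA or TTCCTC, in the 250 bases before each RefSeq start (GRCm38.p6). It was in 7639 of 32851 promoters (23.3%). Of the 5 markers, Ly6c2, Plac8 and Ms4a4c had it, and Ccr2 and F10 did not. The windows are shown 5′ to 3′ on the strand of the gene, with the motif in capitals, for these 3 genes and for Mrc1, the macrophage mannose receptor, which was the gene farthest below macrophages in the comparison that follows and has the motif at 3 places. They lie at chr15:75111972-75112221 (Ly6c2, minus strand), chr5:100572206-100572455 (Plac8, minus strand), chr19:11407411-11407660 (Ms4a4c, plus strand) and chr2:14229164-14229413 (Mrc1, plus strand). A match describes letters only.
Ly6c2: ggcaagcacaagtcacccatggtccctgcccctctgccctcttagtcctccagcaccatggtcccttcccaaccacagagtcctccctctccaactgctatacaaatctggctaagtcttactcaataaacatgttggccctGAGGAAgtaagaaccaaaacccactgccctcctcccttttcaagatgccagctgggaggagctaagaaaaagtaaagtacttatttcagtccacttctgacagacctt
Plac8: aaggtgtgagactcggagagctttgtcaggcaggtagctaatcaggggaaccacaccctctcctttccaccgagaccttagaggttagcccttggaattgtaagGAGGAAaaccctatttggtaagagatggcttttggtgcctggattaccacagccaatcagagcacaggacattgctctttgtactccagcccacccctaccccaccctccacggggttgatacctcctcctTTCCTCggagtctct
Ms4a4c: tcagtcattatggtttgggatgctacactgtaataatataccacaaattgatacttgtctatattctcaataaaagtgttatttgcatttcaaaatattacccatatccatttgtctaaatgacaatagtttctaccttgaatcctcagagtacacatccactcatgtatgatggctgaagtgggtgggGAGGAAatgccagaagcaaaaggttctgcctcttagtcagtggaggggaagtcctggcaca
Mrc1: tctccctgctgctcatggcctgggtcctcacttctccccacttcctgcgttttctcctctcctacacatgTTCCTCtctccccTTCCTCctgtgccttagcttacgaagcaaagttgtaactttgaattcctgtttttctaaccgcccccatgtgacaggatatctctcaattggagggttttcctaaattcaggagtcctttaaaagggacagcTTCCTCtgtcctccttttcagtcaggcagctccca

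Spi1 itself was at 360.3 ± 97.1 CPM in monocytes and 368 ± 95.1 CPM in macrophages (SD, n = 6 libraries), with a mean log2 ratio of -0.03 ± 0.24, so the ranges of both classes overlapped. Of the 10 genes highest in monocytes named below, 7 had a promoter in the table and 1 of these the motif. Of the 10 lowest, 9 had a promoter and 5 the motif, with positions from 240 bases to 8 bases before the start.

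The monocytes made up 0.742%, 4.59% and 3.20% of filtered barcodes in controls 1, 2 and 3 and 4.16%, 6.003% and 0.903% in knockouts 1, 2 and 3. Their 95% Wilson intervals, which cover counting error only, ran from 0.475% to 1.16% in control 1 and from 5.54% to 6.50% in knockout 2. Control 1 and knockout 3 stood below the other 4 libraries, and the groups overlapped. The mean was 2.85% ± 1.95 in controls and 3.69% ± 2.58 in labelled knockouts (SD, n = 3 each), a difference of 0.843 percentage points (exact permutation test, two-sided, p = 0.7, where 3 libraries against 3 allow no p under 0.1). Without knockout 3 the difference was 2.24 percentage points (exact permutation test, p = 0.4), and it turned negative without control 1 (-0.208) and without knockout 2 (-0.314).

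Among barcodes with a UMI of Ptprc, the gene of the leukocyte protein CD45, monocytes were 3.97%, 9.22%, 8.95%, 11.6%, 11.6% and 2.95%. Macrophages, chosen by at least 20 UMIs of the C1q genes, at least 1 of Csf1r and under 5 of the 4 monocyte genes, numbered 83, 325, 484, 82, 853 and 531 cells. The libraries held 22.9, 119, 55.6, 109, 66.9 and 11.9 monocytes per 100 macrophages. The ratio thus ran from 11.9 in knockout 3 to 119 in control 2, and the spread within each genotype group was wider than the difference between them. On the log2 scale the means were 5.74 ± 1.19 in controls and 5.47 ± 1.68 in labelled knockouts (SD, n = 3 each), a difference of -0.27 (exact permutation test, two-sided, p = 0.9). Without knockout 3 it was 0.68 (p = 0.6 by the exact permutation test). Depth per barcode, the number of cells recovered and the gene list differed between the replicate numbers, and their part in these shares was not tested.

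**Figure D2:**
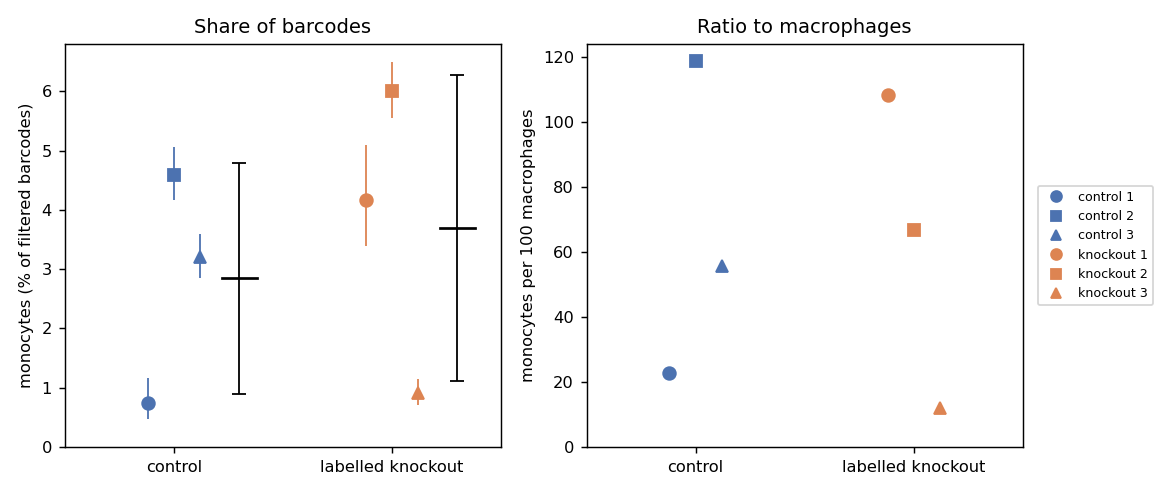
Left, monocytes as a percent of filtered barcodes with 95% Wilson intervals; right, monocytes per 100 macrophages; each point is 1 library, and the black bars on the left give the mean ± SD of the 3 libraries of a group. Control 1 (0.742%) and knockout 3 (0.903%) lie lowest on the left, and the groups overlap in both panels.

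Against the macrophages of the same libraries, the monocytes were richer in Chil3, Ifitm6, Ifitm1, haptoglobin and the coagulation factor gene F10. They were poorer in the mannose receptor, the iron exporter and most listed lipid and lysosome genes. Each gene was compared within a library as the log2 ratio of monocyte to macrophage CPM with 5 CPM added. The 9329 genes compared had a mean of at least 10 CPM in the higher of the classes, so a gene could enter through either class. Of these, 74 genes (0.793%) were at least 2-fold higher in monocytes in all 6 libraries and 110 genes (1.18%) at least 2-fold lower. Higher by any amount in all 6 libraries were 1229 genes (13.2%) and lower 1787 genes (19.2%), the shares beside which the list counts below are to be read. Without knockout 3 the counts at 2-fold were 81 and 135, and those by any amount 1545 and 2050. The 2-fold counts were 136 and 152 without knockout 1, and 38 and 64 with 20 CPM added in place of 5. The median gene had a mean log2 ratio of -0.05. Both classes were chosen by transcripts, so these are descriptions.

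Chil3 (chr3:106147554-106167564, minus strand) stood farthest above macrophages, at 1226 ± 651 CPM against 39.1 ± 24.0 CPM (SD, n = 6 libraries), with log2 ratios between 3.796 and 6.316. Ifitm6, of the interferon-induced transmembrane family, followed at 374 ± 172 against 12.2 ± 14.2 CPM, a mean log2 ratio of 4.66 ± 0.70. Among the others of the 10 highest were I830127L07Rik, Gpr141, F10, Mmp8, Hp, Ifitm1 and Mcemp1, with mean log2 ratios from 3.82 down to 3.45. I830127L07Rik (chr15:75131377-75135128, minus strand) is annotated as a transcribed pseudogene and lies beside Ly6c2, so its counts are uncertain. Mmp8, the neutrophil collagenase, was at 207 ± 77.4 against 12.7 ± 7.84 CPM, and Hp, haptoglobin, which binds free haemoglobin, at 758 ± 231 against 121 ± 151 CPM.

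At the other end, Mrc1 (chr2:14229392-14332057, plus strand) was at 0, 12.8, 14.0, 60.0, 10.1 and 32.7 CPM in the monocytes, against a mean of 549 ± 228 CPM in macrophages, a mean log2 ratio of -4.67 ± 1.45. Pf4, platelet factor 4, was at 128 ± 114 against 1669 ± 406 CPM (-4.31 ± 1.66), and its monocyte levels ran from 10.7 CPM in control 1 to 305 CPM in knockout 1. Ms4a7, a macrophage member of the MS4A family, was at 63.9 ± 33.7 against 999 ± 168 CPM. Genes of both ends were chosen to go 1 way in all 6 libraries. Fcrls, Hpgds, Gpnmb, Gdf15, Syngr1, Ccl8 and Vcam1 completed the 10 lowest, with mean log2 ratios from -4.44 to -3.48.

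**Figure D3:**
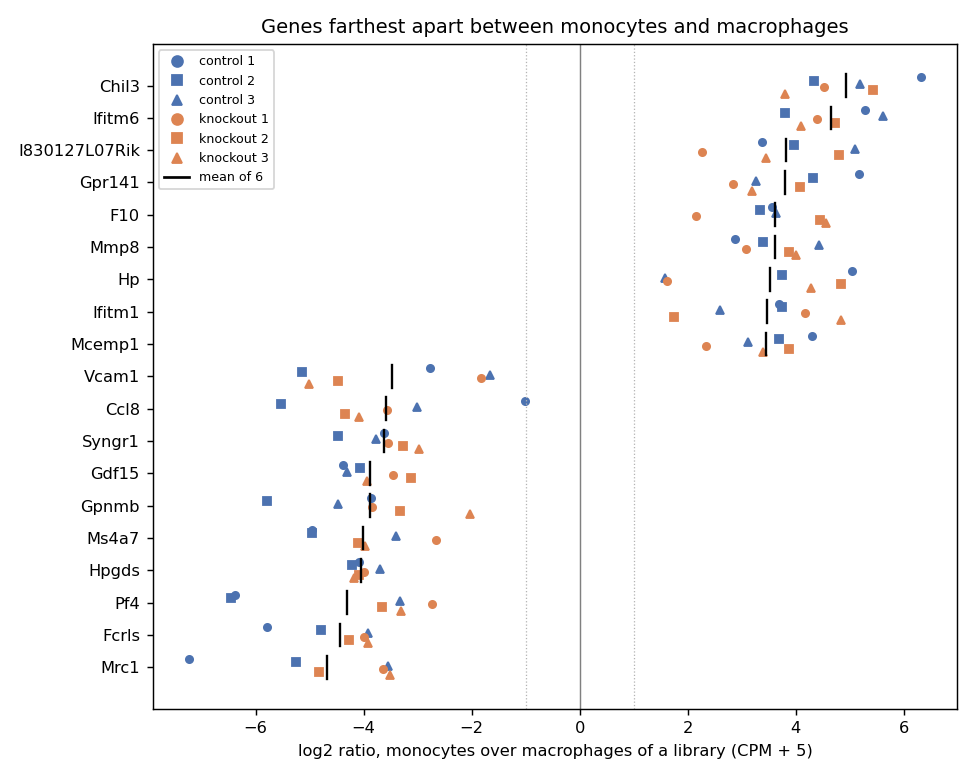
Log2 ratio of monocyte to macrophage CPM (5 CPM added) within each library for 9 of the 10 genes highest and the 10 lowest in monocytes, with 1 symbol per library and a black line at the mean of 6. Chil3 and Ifitm6 lie highest and Mrc1 lowest, and no library crosses 0 because genes were chosen to go 1 way in all 6.

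Of the 18 genes on the classical monocyte list, which was chosen with these data known, 7 were at least 2-fold higher in all 6 libraries, 13 were higher in all 6 and none was lower in all 6, with a median log2 ratio of 1.55. Ifitm3, which blocks the entry of viruses, was at 2712 ± 948 against 450.1 ± 146 CPM and Vcan, the proteoglycan versican, at 383 ± 246 against 48.4 ± 41.9 CPM. Lyz2, the lysozyme of myeloid cells, was at 12433 ± 3509.5 CPM in monocytes and 10337 ± 1695 CPM in macrophages and did not set the classes apart. F13a1 was higher in 5 of 6 libraries. The list of 9 neutrophil genes lay on the same side, with 4 higher in all 6 libraries and a median log2 ratio of 1.74, and its sum in macrophages was 113, 3029, 775, 270.2, 2514 and 2555 CPM. Chil3, Mmp8 and Hp are also known from neutrophils, and the part of neutrophil RNA in these values was not tested. Of the 8 nonclassical genes compared of 10, 7 were higher in all 6 libraries (median log2 ratio 1.57), among them Pglyrp1, a peptidoglycan recognition protein, at 108 ± 92.4 against 12.9 ± 11.4 CPM. Cx3cr1, the fractalkine receptor, was lower in 5 of the 6 libraries, at 114 ± 95.9 against 168 ± 123 CPM.

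Macrophage and lysosome genes were lower as groups. Of 10 macrophage genes compared of 14, 8 were at least 2-fold lower in all 6 libraries (median log2 ratio -2.89), and Timd4, a receptor of resident macrophages, had 0 UMIs in the monocytes. Apoe, the lipid carrier apolipoprotein E, was at 1534 ± 353 CPM in monocytes and 12499 ± 2134 CPM in macrophages, a mean log2 ratio of -3.03 ± 0.49. Trem2, a lipid-sensing receptor, was at 107 ± 48.1 against 552 ± 118 CPM. Of 13 lysosome and lipid genes, 7 were at least 2-fold lower in all 6 (median -2.18), and 8 without knockout 3. The proteases Ctsb (1019 ± 333 against 4882 ± 989 CPM) and Ctsd (662 ± 188 against 3739 ± 877 CPM) were among these, and the galectin Lgals3 was not, at 1953 ± 575 against 2145 ± 658 CPM. All 7 iron and heme genes were lower in all 6 libraries (median -1.18), and Slc40a1, the iron exporter ferroportin, was at 11.5 ± 4.90 against 109 ± 70.2 CPM.

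Recruitment receptors showed single genes rather than a group. Of 11 trafficking receptors compared, 4 were higher and 1 lower in all 6 libraries, with a median log2 ratio of 0.20, beside 13.2% and 19.2% of all genes. Itgb7, the beta 7 integrin chain, was at 104 ± 45.6 against 7.75 ± 4.56 CPM, and Itga4, its alpha 4 partner, at 188 ± 106 against 64.7 ± 35.3 CPM. Ccr1, a receptor for inflammatory CC chemokines, was at 136 ± 59.6 against 60.7 ± 44.4 CPM. The egress receptor S1pr1 was the 1 gene lower in all 6.

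Of 11 inflammatory cytokine genes compared, Il1b alone was higher in all 6 libraries, and 2 genes were in the 5 libraries without knockout 3. Il1b, interleukin 1 beta, was at 328, 478, 235, 871, 142 and 128 CPM in the monocytes, with a mean log2 ratio to macrophages of 2.22 ± 1.33. Tnf was lower in 5 of 6 libraries, at 28.5 ± 8.71 against 69.4 ± 21.1 CPM. The median of the list was 0.05. Of 10 chemokines, Cxcl16 and Ccl8 were at least 2-fold lower in all 6 libraries, and Ccl6 was higher in 5 of 6, at 566 ± 195 against 226 ± 134 CPM. Ccl2, the main ligand of Ccr2, was at 148 ± 73.1 against 121 ± 62.2 CPM and higher in 4 of 6 libraries.

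Among 13 transcription factors compared, 4 were higher and 4 lower in all 6 libraries, and 5 and 5 in the 5 libraries without knockout 3. Cebpb, a factor of stress-induced myelopoiesis, was at 1137 ± 541 against 481 ± 294 CPM, and Klf2, at 353 ± 92.8 against 202 ± 71.7 CPM, was also higher in all 6. Maf and Nr1h3, factors of macrophages and of cholesterol sensing, were lower, at 161 ± 100.02 against 468 ± 149 CPM and 10.3 ± 9.54 against 68.7 ± 25.8 CPM. Irf8, which directs monocyte and dendritic development, was lower in 5 of 6 libraries.

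Of 12 cytokine receptors, 6 were higher and 3 lower in all 6 libraries. Csf3r, the granulocyte colony-stimulating factor receptor, was at 68.7 ± 18.9 against 22.7 ± 6.195 CPM and the decoy receptor Il1r2 at 46.5 ± 34.9 against 7.14 ± 7.77 CPM. Csf1r was lower, at 314 ± 71.8 against 522 ± 87.8 CPM, as were the TGF-beta receptors Tgfbr1 and Tgfbr2. Macrophages were chosen by at least 1 UMI of Csf1r and monocytes were not. The choice thus bears on the difference in Csf1r, which is not read as a result. Of 13 interferon response genes, 4 were higher and 1 lower in all 6 (median 0.24), and 5 and 1 without knockout 3 (0.41). Ifi27l2a was at 1066, 877, 579.7, 827, 3143 and 962 CPM, with knockout 2 above the other 5 libraries.

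Coagulation genes were led by F10 and F5. F5, factor V, was at 41.7 ± 19.6 against 12.0 ± 12.4 CPM, and Plaur, the urokinase receptor, at 113 ± 48.9 against 64.5 ± 30.5 CPM, both higher in all 6 libraries, whereas Plau, its ligand, was lower in all 6. Of 8 coagulation and fibrinolysis genes compared of 10, these 3 were higher in all 6 (median 1.16). Thbs1, thrombospondin 1, was at 1637, 1388, 431, 938, 75.2 and 763 CPM, a wide range in which knockout 2 was the lowest.

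Genes of the osteoclast path were lower in monocytes or mixed. Of 6 genes compared of 11, 4 were lower in all 6 libraries and none was higher (median log2 ratio -1.36). Tnfrsf11a, the receptor RANK, was at 22.7 ± 12.4 against 66.7 ± 12.7 CPM and Atp6v0d2, a proton pump subunit, at 15.6 ± 10.9 against 98.1 ± 45.8 CPM. Mmp9, the gelatinase of osteoclasts and neutrophils, was at 28.5, 116, 42.9, 56.1, 801 and 93.6 CPM, and Acp5, tartrate-resistant acid phosphatase, at 57.1, 84.8, 108, 87.2, 415 and 139 CPM. Both were highest in knockout 2.

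Repair growth factors and proliferation genes were mixed, with more of them lower than higher in monocytes. Of 9 growth factors compared of 11, 5 were lower in all 6 libraries, among them Pdgfb at 20.02 ± 14.98 against 80.8 ± 10.9 CPM, whereas Tgfb1 was at 243 ± 63.1 against 233 ± 52.8 CPM and Vegfa at 85.6 ± 48.5 against 96.0 ± 82.2 CPM. Of 10 cell cycle genes, 6 were lower in all 6, with Mki67 at 60.0 ± 40.3 against 145 ± 71.1 CPM, and Hmgb2 was higher in all 6. Without knockout 3, 8 of the 10 cell cycle genes were lower in each library. Of 11 glycolysis and hypoxia genes compared of 12, 2 were higher in all 6 (Pkm and Eno1), with a median of 0.22, and 2 were lower in all 5 libraries without knockout 3. Of 7 antigen presentation genes compared of 8, H2-DMa was higher and Cd74 and Cd83 were lower in all 6. MHC class II genes and C1q genes were capped in the monocytes by the rule and are not read here. Cd74 encodes the invariant chain of MHC class II, so the cap may bear on its level too, which was not tested.

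Of 15 pattern and Fc receptors, 5 were higher and 3 lower in all 6 libraries, with a median of 0.03. Clec4e, a receptor for mycobacterial and dead-cell ligands, was at 187 ± 84.2 against 49.3 ± 39.0 CPM, and the formyl peptide receptor Fpr2 at 47.7 ± 32.2 against 10.3 ± 12.8 CPM, both at least 2-fold higher in all 6. Clec4n was lower, at 118 ± 98.2 against 368 ± 160.5 CPM. The signalling adaptors Fcer1g (1954 ± 560.3 against 1972 ± 535 CPM) and Tyrobp (2409.6 ± 669 against 1862 ± 435 CPM) were within the spread of both classes. Of 10 immediate-early and heat shock genes that dissociation can induce, 1 was higher in all 6 (median 0.24).

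The monocytes were not uniform in Ly6c2. Among members with at least 4000 UMIs, those with at least 3 UMIs of Ly6c2 were set beside those with 0 in the 5 libraries that had at least 10 cells of each, as a description, since Ly6c2 was in the rule. Of 158 listed genes, 13 were higher in all 5 libraries in the cells with Ly6c2 and 7 lower. No share over all genes was taken for this split, so these counts are not read as a result. Chil3 was at 1812 against 633 CPM on average, with 2134 against 186 CPM in knockout 2 and 812 against 360.3 CPM in knockout 3. F13a1 was at 819 against 389 CPM, Ifitm6 at 511 against 175 CPM, and F10 at 251 against 139 CPM. The cells without Ly6c2 had more Lgmn, a lysosomal protease (381 against 186 CPM), Cxcl16 (103 against 47.0 CPM) and Tgfbr2 (74.9 against 36.7 CPM). Of macrophage markers, Pf4 (447 against 61.7 CPM) and Apoe (2182 against 1180 CPM) were also higher without Ly6c2, each in 4 of 5 libraries. Adgre1 was even (90.7 against 89.9 CPM), and Cd163 went the other way in 4 of 5 at few UMIs. The part of macrophage RNA in this split was not tested. The 7 lower genes include an MHC class II gene that the rule caps. The 10 nonclassical genes were uneven. Ace (34.4 CPM without Ly6c2, 13.4 CPM with it) and Cx3cr1 (116 and 85.3 CPM) were higher without Ly6c2 in 4 of 5 libraries, as were Treml4, Eno3 and Spn. Pglyrp1 went the other way in 5 of 5 libraries (48.2 and 158 CPM), and Itgal was higher with Ly6c2 in 3 of 5. Median depths of the cells with and without Ly6c2 were 6803 and 5076 UMIs in control 2 and 5602 and 7474 UMIs in knockout 2. The share of these members with 0 Ly6c2 ran from 9.36% in knockout 2 to 47.4% in control 1.

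The genes most variable from cell to cell, by the ratio of variance to mean over monocytes thinned to 1000 UMIs, were mostly genes of other cell types. Control 1, with 19 cells, was left out. The 5 highest of 15 by the median of the other libraries were S100a9 (94.8), S100a8 (92.3), Camp (21.3), Retnlg (20.9) and Ngp (19.5), which are neutrophil granule and calprotectin genes. Col1a1, Col1a2, Sparc, Col3a1, Ibsp and Col2a1 of bone and cartilage matrix came next, followed by Saa3, Mgp, Lyz2 and Pf4. S100a8 was at 82.0, 10008, 4899, 694, 11902 and 3685 CPM, and after thinning a UMI of it was found in 22.5% to 54.99% of the monocytes of these 5 libraries, and in 16.2% to 42.7% of their stromal cells, which should lack the gene. Without thinning it was found in 87.9% of the monocytes and 83.7% of the stromal cells of all 6 libraries. Both libraries numbered 1 were lowest in S100a8.

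Transcripts of other cells were found in the monocytes. The 10 stromal genes summed to 29514, 12292, 11239, 42770.2, 24528 and 48182 CPM, led by Col1a1, against 16145, 7032, 9823, 31136, 18806 and 26849 CPM in the macrophages of the same libraries. Each labelled knockout was above controls 2 and 3, and the monocytes were above the macrophages in each library. At least 10 UMIs of Col1a1, Col1a2, Col2a1 and Col3a1 together were present in 955 of 1397 monocytes. The 9 neutrophil genes summed to 253, 21416, 9508, 1509, 26083 and 8445 CPM, led by S100a8. Lymphocyte, dendritic, basophil and endothelial lists each summed to at most 442 CPM in each library, the lymphoid gene Dntt had 0 UMIs, and the basophil protease Mcpt8 reached 112 CPM in control 3. Taking at least 3 UMIs of the lymphocyte, plasmacytoid and basophil lists together or at least 5 of Ltf, Camp, Ngp and Retnlg, 323 monocytes (23.1%) had markers of other types. That count leaves out the stromal list and most neutrophil genes: at least 3 UMIs of the stromal list were in 1393 monocytes (99.7%) and of the neutrophil list in 1215 (87.0%). By Scrublet score, 0, 44, 27, 3, 69 and 5 monocytes were among the barcodes most like doublets. The part of free RNA and of doublets in these values was not tested.

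**Figure D4:**
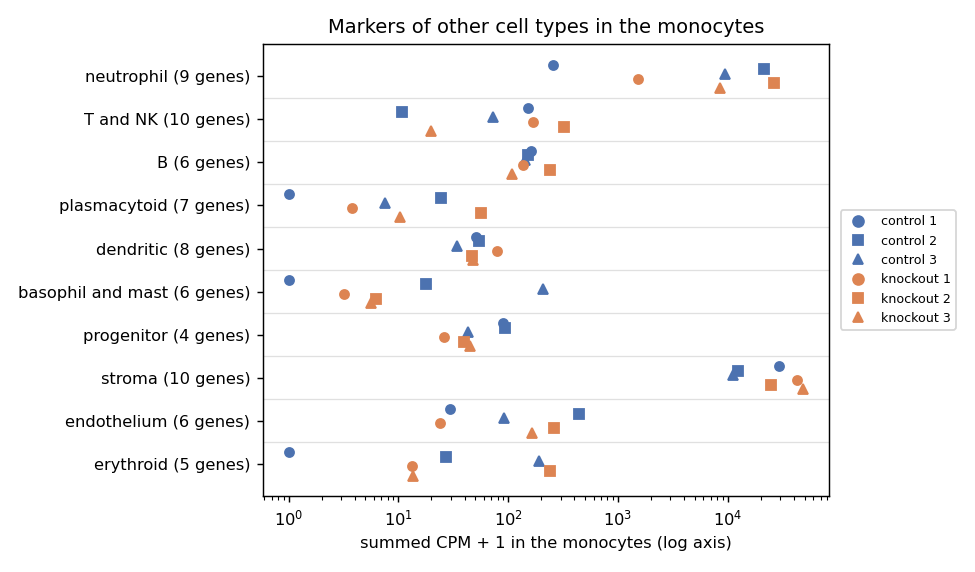
Summed CPM plus 1 (log axis) of 10 lists of markers of other cell types in the monocytes of each library, with controls in blue and labelled knockouts in orange and the number of genes per list in brackets. The stromal and neutrophil lists are the most abundant, with up to 48182 CPM of stromal genes in knockout 3 and 26083 CPM of neutrophil genes in knockout 2.

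Between the genotype labels, no gene of the monocytes passed the test. Piezo1, the mechanosensitive channel targeted in chondrocytes, was at 46.4, 28.3, 35.9, 67.2, 34.1 and 40.5 CPM in the monocytes, with a log2 fold change of 0.43 ± 0.32 (SE). The groups overlapped, and in the stromal cells of the same libraries it was at 62.4, 67.5, 57.8, 101, 49.6 and 46.8 CPM. A 3′ count may lie outside the deleted part of the gene. UMI sums per library were tested with edgeR's quasi-likelihood test over 10386 genes, and 0 genes rose (0%) and 0 fell (0%) past a Benjamini-Hochberg adjusted p of 0.05. At an unadjusted p under 0.05 there were 340 genes (3.27%). The test could find only large changes at this size: of 200 genes given a known change, it recovered 0% at a log2 change of 1, 15% at 2 and 80.5% at 3. The groups did not overlap for 482 genes higher in the labelled knockouts (4.64%) and 408 lower (3.93%).

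Leaving out knockout 3 also gave 0 calls, with 228 genes at an unadjusted p under 0.05. Leaving out knockout 1 gave 1 call, Car3, and leaving out both libraries numbered 1 gave 3 calls, Ifitm5, Car3 and Rps3a3. DESeq2 called Creb3l1 and Tmem119, and edgeR without the filter on low counts called 105 genes of 21991, of which 85 rose and 20 fell.

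The 5 genes of smallest unadjusted p in each direction are named here as not past the threshold. Creb3l1, a transcription factor of secretory and bone-forming cells, was at 17.8, 14.1 and 25.9 CPM in controls and 108, 72.04 and 93.6 CPM in labelled knockouts, a log2 fold change of 2.22 ± 0.35 (SE) with an edgeR adjusted p of 1.00. The groups did not overlap. Cdh2, the adhesion protein N-cadherin, was at 3.57, 5.57 and 10.5 against 32.2, 35.6 and 35.9 CPM (log2 fold change 2.23). Cemip, which degrades hyaluronan, was at 2.92, Col24a1, a bone collagen, at 2.89, and Unc5b, a netrin receptor, at 2.00. Without knockout 3 the log2 fold changes of these 5 genes were 2.16, 2.19, 3.14, 3.03 and 1.91 for Creb3l1, Cdh2, Cemip, Col24a1 and Unc5b. In the macrophages of the same libraries they were 0.96, 1.20, 0.07, 2.04 and 1.22. Without cells with markers of other types, Cdh2, Cemip and Col24a1 were too low to be tested, as were Cemip and Col24a1 without the barcodes most like doublets. The stromal list also had higher estimates in the labelled knockouts (10 of 10 genes, median 1.38), and its part in these values was not tested.

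In the lower direction, Notch2, a Notch receptor, was at 103, 87.3 and 103 CPM in controls and 58.9, 46.9 and 48.3 CPM in labelled knockouts, a log2 fold change of -0.89 ± 0.25 (SE). In the macrophages of the same libraries the log2 fold change was -0.08 for Notch2, -1.12 for mt-Atp8, -1.03 for Gm45220 and -0.49 for Slc30a1. Without knockout 3 the monocyte values were -0.88, -1.57, -0.96 and -1.12 for these genes. The mitochondrial gene mt-Atp8 was at 235, 220.0 and 199.9 against 95.03, 53.2 and 112 CPM (-1.30), and the zinc transporter Slc30a1 at -1.07. Gm45220 and E030024N20Rik, known only by model names, were at -1.14 and -2.36. E030024N20Rik, annotated as a processed pseudogene, was at -2.14 without knockout 3 and at -3.47 without knockout 2. Without cells with markers of other types it was too low to be tested. For all 5 the edgeR adjusted p was 1.00.

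The median log2 fold change of all genes tested was 0.03. Of 18 classical monocyte genes, 6 had higher and 12 lower estimates in the labelled knockouts, with a median of -0.19, none passed the test, and 2 were lower in every labelled knockout than in any control. These were the calcium-binding S100a4, at 1755, 1212 and 2308 against 885, 933 and 767 CPM, and the glutathione transferase Mgst1, at 325, 291 and 307 against 77.2, 249 and 123 CPM. Among all genes tested, 3.93% were lower without overlap. In macrophages the log2 fold change of S100a4 was -1.07 and that of Mgst1 -0.07. With knockout 3 left out, 6 estimates were higher and 12 lower (median -0.17).

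Of 12 trafficking receptors, 11 had lower estimates (median -0.41), and 3 did not overlap between groups, beside 3.93% of all genes tested. With knockout 3 left out, 11 of 12 also had lower estimates (median -0.41). These were the integrin chains Itga4, at 353, 236 and 199 against 56.1, 191 and 93.6 CPM, and Itgb2, at 439, 281 and 249 against 206, 197 and 209 CPM, and the receptor Cxcr4, at 149.8, 187 and 152 against 142, 56.7 and 96.7 CPM. Of 12 cytokine receptors, 11 had lower estimates (median -0.10), and 8 without knockout 3 (-0.05). Ifngr1, a chain of the interferon gamma receptor, was at 496, 390.0 and 389 against 255, 282 and 201 CPM, and Il10ra at 107, 103 and 67.3 against 34.5, 57.3 and 40.5 CPM. None of these genes passed the test.

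Higher estimates were found for 10 of 10 stromal genes (median 1.38), 9 of 10 cell cycle genes (0.72), 11 of 12 glycolysis and hypoxia genes (0.41) and 7 of 8 osteoclast genes tested (0.82). Without knockout 3 these were 7 of 10 stromal genes (0.66), 8 of 10 cell cycle genes (0.24), 11 of 12 glycolysis and hypoxia genes (0.40) and 7 of 8 osteoclast genes (0.99). Lower estimates were found for 8 of 9 chemokines (-0.35) and 7 of 8 antigen presentation genes (-0.37), and without knockout 3 for 8 of 10 (-0.41) and 7 of 8 (-0.54). Lower without overlap were 1 cell cycle gene and 1 chemokine, and higher 1 osteoclast gene, beside 3.93% lower and 4.64% higher of all genes tested. Col1a1 was at 6391, 2021 and 2229 CPM in control monocytes and 11738, 8238 and 7896 CPM in those of the labelled knockouts, and Col1a2 and Sparc also did not overlap, 3 of 10 stromal genes beside 4.64% of all genes tested. In the macrophages of the same libraries the log2 fold change of Col1a1 was 1.22 and that of Sparc 1.52, and neither passed the test. Of 13 lysosome and lipid genes, 10 had higher and 3 lower estimates (median 0.32), and 9 and 4 without knockout 3 (0.35). In each direction 1 gene did not overlap, beside 4.64% higher and 3.93% lower of all genes tested. The higher one, Cd63, a lysosomal and exosomal tetraspanin, was at 299.6, 236 and 299 against 728, 419.8 and 603 CPM. Mmp9 and Acp5 of the osteoclast list were highest in knockout 2. Without knockout 2 the log2 fold change of Mmp9 was 0.17 in place of 2.39. No gene of these lists passed the test, and the part of stromal RNA in them was not tested.

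Of the genes the study followed, Apoe was at 1444, 1415 and 1249.7 CPM in controls and 2186, 1658 and 1251 CPM in labelled knockouts, a log2 fold change of 0.34 ± 0.31 (SE). Spp1, osteopontin, was at 456, 437 and 2714 against 2924, 1182 and 1442 CPM. Trp53, the gene of p53, had a log2 fold change of 0.33 (0.15 to 0.42 with 1 library left out). Beside these genes of the study, the p53 target Cdkn1a was at 531, 531 and 356 against 558, 293 and 515 CPM. The groups overlapped for Apoe, Spp1 and Cdkn1a. With 1 library left out, the log2 fold change of Apoe ran from 0.22 (without knockout 1) to 0.50 (without knockout 3), that of Piezo1 from 0.18 (without knockout 1) to 0.59 (without knockout 2), and that of Spp1 from 0.12 (without control 2) to 2.13 (without control 3). Lars2, the mitochondrial leucyl-tRNA synthetase, whose gene overlaps repeats that take up rRNA reads, was at 578, 249.98 and 187 against 416, 106 and 68.6 CPM, with log2 fold changes from -1.74 (without knockout 1) to -0.23 (without control 1). Between libraries of the same number, Apoe and Piezo1 were higher and Lars2 lower in the labelled knockout in 3 of 3 pairs, for Apoe by 1251 against 1249.7 CPM in pair 3. With the replicate number as a block the log2 fold changes of Apoe, Piezo1, Lars2 and Spp1 were 0.32, 0.37, -0.998 and 1.16, with edgeR adjusted p of 0.915, 0.915, 0.893 and 0.898. Cdkn2a, the gene of the senescence marker p16, was at 0, 4.71 and 2.49 against 29.5, 6.08 and 9.36 CPM, without overlap and at few UMIs. None passed the test.

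**Figure D5:**
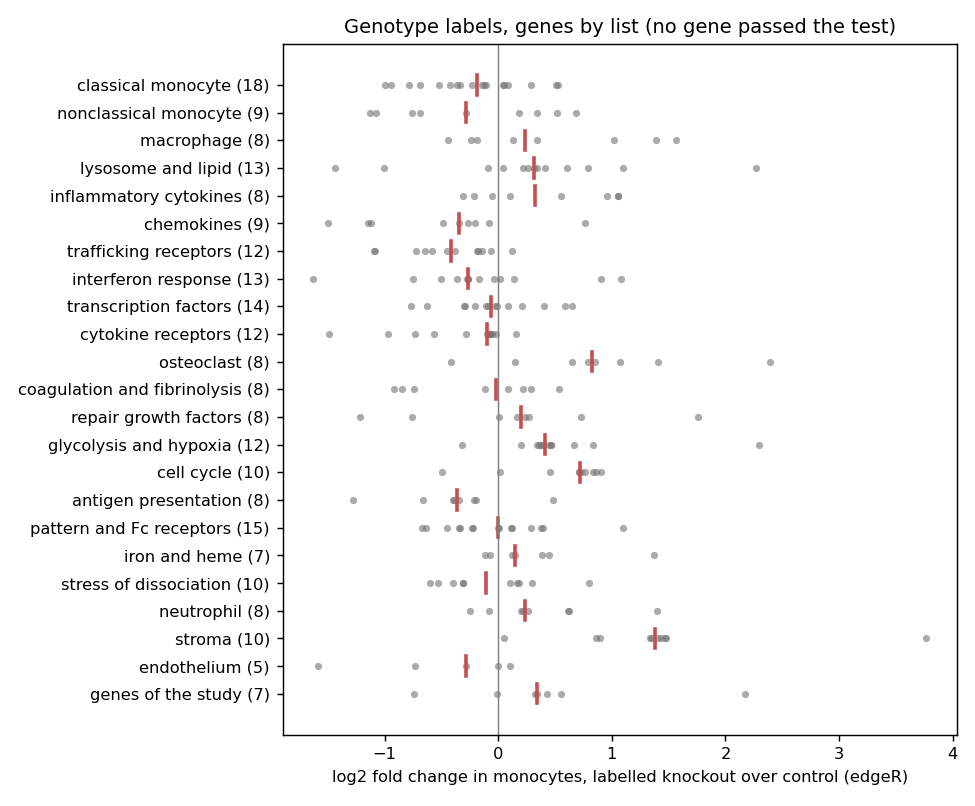
Log2 fold change of each tested gene in the monocytes, labelled knockout over control, by gene list, with 1 grey point per gene, a red line at the median of the list and the number of genes tested in brackets. The stromal list has a median of 1.38 (0.66 without knockout 3), the classical monocyte list lies at -0.19, and no gene passed the test.

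Whether a genotype difference was particular to monocytes was tested as the difference between the fold change in monocytes and that in macrophages, with library as a block. Of 11945 genes, 0 (0%) passed an adjusted p of 0.05 by edgeR, with 320 at an unadjusted p under 0.05. In the macrophages alone, 0 of 11933 genes (0%) passed. Without knockout 3 the difference test called 1 gene, Hba-a1, and without control 3 it called Pf4. For Notch2 the difference between the classes was -0.78 ± 0.22 (SE), with an edgeR adjusted p of 1.00. Other genes named above lay farther apart, among them Cemip (2.34 ± 0.70) and Creb3l1 (1.24 ± 0.40), and these did not pass either.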

How the data were processed

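Callus cells were released by enzyme digestion and sequenced with 10x Genomics 3′ chemistry. The authors deposited 1 matrix of raw UMI counts per library, made with Cell Ranger (6.1.1 or 6.1.2 in the file headers) on GRCm38, and the submitters' notes name Seurat. The deposited counts were not normalised. The 52081 genes shared by the 6 libraries were used and held 97.8% to 99.7% of UMIs.

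The members, classes and gene lists were chosen with earlier results of these data known. UMIs were summed per library and class. Genotype was tested with edgeR 4.0.16 (TMM, filterByExpr, quasi-likelihood F test, Benjamini-Hochberg, threshold 0.05), and the test was checked on simulated counts. In the test by cell type, library was a block. Shares were compared with exact permutation tests. Genes low in both classes were left out of lists. Named genes were those of the rule and lists, the 10 highest and 10 lowest against macrophages (at least 50 CPM in the higher class, 1 direction in all 6 libraries, no rule genes), 5 per direction between genotypes by unadjusted p since none passed, and 15 by variance to mean. Values of a few genes are not reported here. Deviations of same-numbered libraries correlated at 0.480, 0.127 and 0.164 over 3392 genes, and those of control 3 with knockout 2 at 0.322 and control 2 with knockout 3 at 0.204. As each same-numbered pair was above 0.1, a replicate block was fitted as an alternative, although the labels state no pairing. Scrublet (scanpy 1.11.5) gave each barcode a doublet score, and the highest scores, 0.8% per 1000 barcodes, were marked and left out in an alternative only, since its own threshold called few. Other alternatives were DESeq2 1.42.0, filters, pseudocounts and leaving out libraries. Motifs and positions used the GRCm38 annotation and RefSeq promoters of GRCm38.p6, and 250 bases before each start were searched.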

Additional observations from a re-analysis of the deposited data

How the results depend on the processing

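The monocyte share and the ratio to macrophages had no stable direction. Leaving out 1 library moved the difference in share between -0.314 and 2.24 percentage points and that in log2 ratio between -0.918 and 0.678; without both libraries numbered 1 these were -0.444 and -1.53, and without both numbered 3 the ratio difference was 0.71. With the replicate block the exact sign-change p was 0.75 for the share and 1 for the ratio, and edgeR with the block called 0 genes (510 at an unadjusted p under 0.05). Leaving out 1 library gave 0 to 1 genotype calls and 0 to 1 calls for the difference between classes. Genotype calls numbered 3 without both libraries numbered 1, 105 without the filter on low counts and 2 with DESeq2, and calls for the difference between classes 1 without both numbered 3 (Hbb-bs) and 61 without the filter. Against macrophages, 75 to 136 genes were higher and 110 to 152 lower with 1 library left out, the highest counts being without knockout 1; without both numbered 1 there were 155 and 188, without both numbered 3 there were 167 lower, and with a pseudocount of 20 CPM there were 38 and 64. Without cells with markers of other types, 108 were higher and 140 lower, of which 69 and 92 were shared with the 74 and 110, and with cells thinned to 1000 UMIs 71 and 121, of which 45 and 80 were shared. Some log2 fold changes between genotypes changed sign: Cdkn1a (-0.16 to 0.20 with 1 library left out, 0.13 at a marker sum of at least 10), S100a8 (-1.16 to 1.12, -0.043 at that sum, -1.90 without cells with markers of other types), Il1b (-1.23 to 0.48, -1.31 without both numbered 1, -0.41 with the block) and Spp1 (-0.25 without both numbered 1). Without the filter, Creb3l1, Cemip, Cdh2, Unc5b and Mmp9 passed the test, and Creb3l1 also with DESeq2. The causes were not tested. Control 1 with 19 monocytes and knockout 3 with 63 limit the precision.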

Other observations

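The other myeloid classes of the same libraries carried some of the marker genes. In the 850 cells with high MHC class II, chosen by at least 50 UMIs of H2-Aa, H2-Ab1 and H2-Eb1, Ccr2 had a mean of 315 CPM and Plac8 of 451 CPM over 6 libraries, whereas F10 was at 21.8 CPM and Chil3 at 89.3 CPM. Cd209a, a lectin of monocyte-derived dendritic cells, was at 162 CPM there. The 3038 neutrophils were chosen by at least 20 UMIs of S100a8 and S100a9 together, with Csf3r found and Ccr2 not found. In these cells Ms4a4c was at 1.78 CPM and F10 at 14.0 CPM. S100a8 ran from 31849 to 84334 CPM, but the choice bears on this level, which is not read as a result. Chil3 is not given here for the neutrophils, so whether it sets the monocytes apart from them was not tested.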
